A study of Homo sapiens with 4 samples.

Results

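N-glycans are sugar chains that the endoplasmic reticulum attaches to asparagine residues of secreted and membrane proteins, and the RNA of 48 genes that build, transfer, trim, branch or remove them was measured here. The 48 genes were chosen by name from general knowledge of the pathway, not by a threshold on their values. Earlier results of these data were known when they were chosen. All 48 were found among the 23362 genes of the deposited expression table. They comprise 19 genes of precursor assembly, 9 subunits of the oligosaccharyltransferase (OST), 10 genes of trimming and refolding control, 9 genes of branching and capping, and NGLY1, which removes the glycan. Where a symbol is listed more than once, the entry with the highest mean level was used, which applied to ALG9 alone.

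The study asked how N-glycosylation of KIAA1324, a membrane protein, affects its action in gastric cancer cells, and poly(A) RNA of MKN28 cells, an established human gastric adenocarcinoma line, was sequenced. Each of the 4 groups had 1 library, the groups being a Luc control and cells made to express KIAA1324 WT, 3NQ or ΔTM. In 3NQ the asparagines at codons 153, 404 and 672 are replaced by glutamine, and ΔTM lacks the transmembrane segment. All KIAA1324 constructs were 3HA-tagged, were introduced by retrovirus under a doxycycline-dependent tet-on promoter and were kept as drug-selected stable lines, so that each group is a single line derived from MKN28. With 1 library per group there were no replicates, so no difference could be set against a replicate spread and p-values, errors and intervals are not given.

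In the general scheme, a lipid called dolichol carries the growing glycan. The ALG enzymes and DPAGT1 add N-acetylglucosamine, mannose and glucose to it one after another, first on the cytosolic and then on the luminal face of the membrane. OST moves the finished glycan to an asparagine followed by any residue but proline and then serine or threonine, a motif called the sequon. Glucosidases and mannosidases then trim the glycan while the protein folds, and Golgi transferases add branches, fucose, galactose and sialic acid.

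The coding sequence of KIAA1324, 1013 codons long, holds 9 sequons, and the 3 that 3NQ changes are shown because they separate the WT from the 3NQ construct. Each window is reference sequence of GRCh37 on the plus strand of chromosome 1 with the sequon in capitals. The first lies in exon 3 at chr1:109707303-109707311, the next in exon 9 at chr1:109730967-109730975 and the last in exon 15 at chr1:109737109-109737117, and the first 2 windows run across an exon junction.
codon 153: gagtccaccgggAACTGTACTtcgtccaag
codon 404: ggttcctactccAATGGCTCAgactgtacc
codon 672: actttcaactacAACTTCTCCgctttggca

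Levels are given as FPKM (fragments scaled to transcript length and to the number of mapped fragments), which the authors had scaled for library size and gene length. The FPKM of KIAA1324 was 2.86 (Luc), 11185 (WT) and 8197 (3NQ), and the gene was listed at 0 in the ΔTM library. In a table without counts an exact 0 can be a failed estimate, so this value shows neither the construct nor its absence. The label could not be checked, and the library is called the ΔTM-labelled library throughout. Summed FPKM lay between 560540 and 585104, and depth is unknown because the table holds no counts. The summed FPKM of 7 epithelial markers was 13920 (Luc), 8182 (WT), 10594 (3NQ) and 12151 (ΔTM-labelled). All 7 were below Luc in WT and in the ΔTM-labelled library, and in 3NQ 6 were below and 1 above it. In WT, KRT8 (−0.91 on the log2 scale) and KRT18 (−0.80) were at least 1.5-fold lower than in Luc. No epithelial marker fell that far in 3NQ or the ΔTM-labelled library. The part of these markers in the values of WT and the other libraries was not tested. Sums were 12.3 to 15.5 for 5 fibroblast markers, with COL1A1 as the only one passing an FPKM of 1, and 4.53 to 5.92 for 5 leukocyte markers, with CD68 as the only one. The 3 endothelial markers were all under that level.

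A gene was compared between libraries where its FPKM was at least 1 in at least 1 library, which 11769 genes and 43 of the 48 members met. Differences are log2 ratios of FPKM + 1, which understate the change of low genes, and a member was called where the ratio reached 1.5-fold. The share of all 11769 genes that reached the same fold is given as the background. The comparisons share libraries, with Luc in 3 of them and WT in several, so each is described by its own values. In a bulk sample, fewer cells with a transcript and less of it per cell cannot be told apart.

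Among the 43 members, those higher in WT than in Luc were DHDDS, ALG2 and ALG14, all of precursor assembly. These 3 members stand beside a background of 3.36% of all genes. ALG10B and MGAT3 were lower in WT, 2 members beside a background of 3.34%. In 3NQ, ALG2 and ALG5 were higher (2 members, background 1.77%), whereas MGAT3 and FUT8 were lower (2 members, background 2.57%). In the ΔTM-labelled library, ALG5 and RPN1 were higher (2 members, background 1.54%), and MGAT5 was lower (1 member, background 1.57%). Between WT and 3NQ, no member was higher in WT (0 members, background 2.89%), and ALG5 was lower in WT (1 member, background 1.58%). At the background shares, 1.45 of the 43 members would be higher and 1.44 lower in WT, 0.760 and 1.11 in 3NQ, and 0.661 and 0.676 in the ΔTM-labelled library, so that each count lies within 2 genes of it. In these 4 comparisons 9 members were called at least once and 34 in none. The share of all genes called at least once was not computed, so these 2 counts have no background and only say which members are shown.

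**Figure D1:**
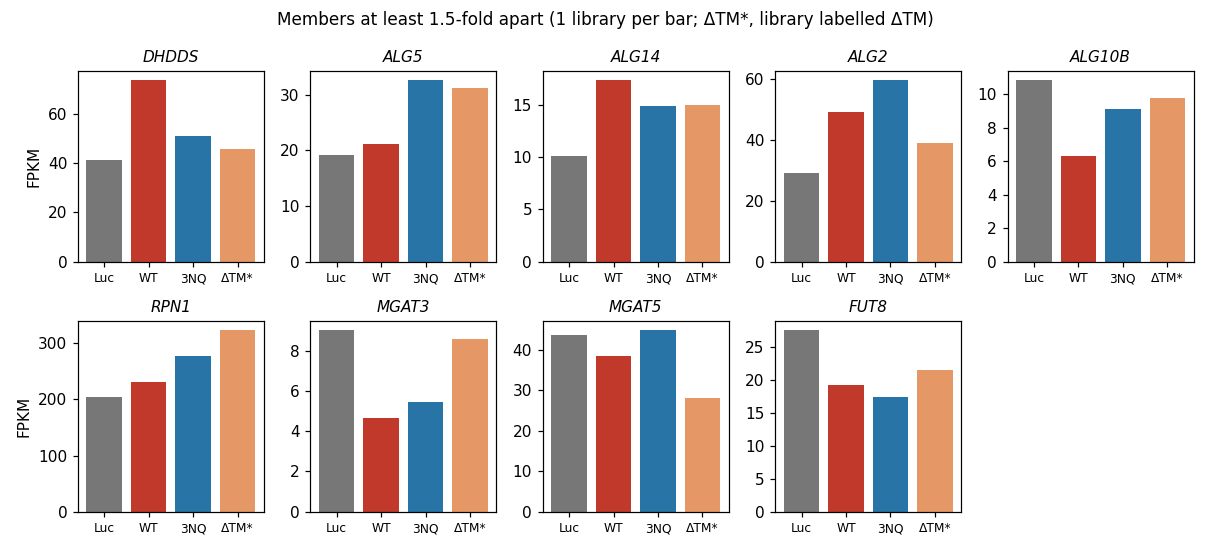
FPKM (vertical axis, linear from 0) of the 9 members that reached 1.5-fold against Luc or between WT and 3NQ, with 1 bar for each library. DHDDS stood highest in WT at 73.9, ALG5 was at 32.7 in 3NQ and 31.2 in the ΔTM-labelled library, and MGAT3 was lowest in WT at 4.65.

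A lower threshold, with the larger value at least 25% above the smaller, took in more members and more of all genes. At that threshold, 7 members were higher (background 11.4%) and 4 lower (background 12.8%) in WT than in Luc. In 3NQ, 10 members were higher (background 7.02%) and 2 lower (background 11.7%). In the ΔTM-labelled library, 10 were higher (background 5.15%) and 3 lower (background 8.31%). The background shares would give 4.89 higher members in WT, 3.02 in 3NQ and 2.21 in the ΔTM-labelled library. Between WT and 3NQ, 4 members were higher in WT (background 11.1%) and 7 lower (background 6.76%). The WT library was also compared with the ΔTM-labelled library, a comparison added after the values were seen. At 1.5-fold, DHDDS was higher in WT (1 member, background 4.25%), and MGAT3 and MAGT1 were lower (2 members, background 2.91%). At the 25% threshold, 8 members were higher in WT (background 15.7%) and 11 lower (background 10.5%).

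Of the 4 stages with several members, the OST had the highest median ratio to Luc and branching the lowest in each of the 3 libraries. The OST median was 0.13 (WT), 0.42 (3NQ) and 0.39 (ΔTM-labelled). The median of precursor assembly was 0.077, 0.18 and 0.062 in the same order, and that of trimming was 0.020, 0.063 and −0.033. The branching median was −0.18, −0.27 and −0.20. Beside these, the median of all 11769 genes was −0.0049, −0.038 and −0.060. Directly between WT and 3NQ, the median was −0.27 for OST, −0.11 for trimming, 0.070 for precursor assembly and 0.11 for branching, and 0.025 for all genes. Against the ΔTM-labelled library, the medians of WT were −0.33 for OST, −0.024 for trimming and 0.15 for branching, and 0.047 for all genes.

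**Figure D2:**
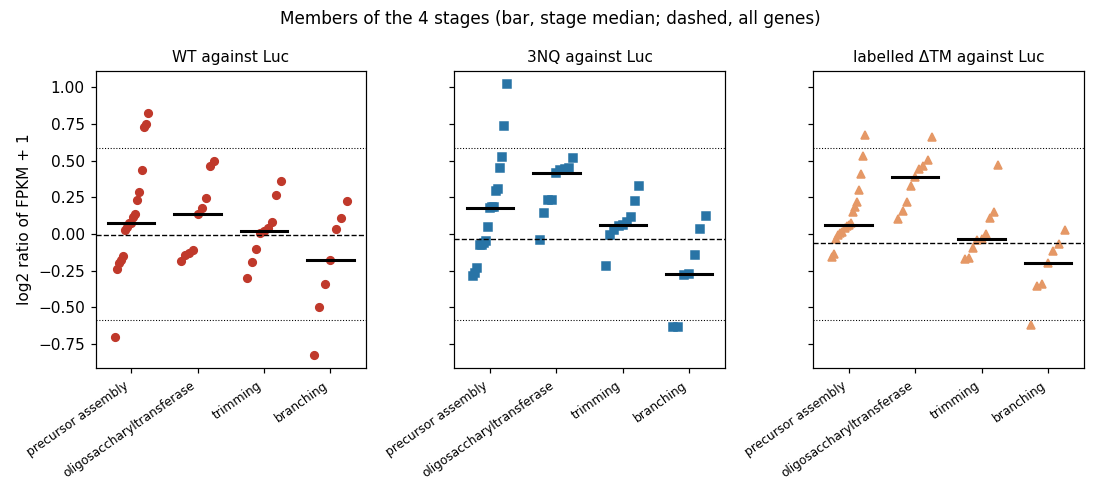
Log2 ratio of FPKM + 1 to Luc (vertical axis) of the members in each of 4 stages (horizontal axis), with 1 panel per library, 1 point per member, a bar at the stage median, a dashed line at the median of all genes and dotted lines at 1.5-fold. The OST bar lies at 0.42 in 3NQ and 0.39 in the ΔTM-labelled library, and the branching bar lies below the dashed line in all panels.

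The level of the members spanned a wide range. Among the 43, 10 had a mean FPKM of at least 100 over the 4 libraries and 7 had a mean under 10, with a median of 40.0. The 9 OST subunits alone held 48.6% of the summed FPKM of the members that passed in Luc, 50.2% (WT), 54.0% (3NQ) and 54.4% (ΔTM-labelled). Branching held 16.8% in Luc and 15.1%, 13.3% and 12.9% in the other libraries.

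Dolichol supply opens the pathway. DHDDS (ENSG00000117682, chr1:26758773-26797785, plus strand, GRCh37), a subunit of the enzyme that makes the dolichol chain, had an FPKM of 41.3 (Luc), 73.9 (WT), 51.2 (3NQ) and 45.8 (ΔTM-labelled). WT stood above the other libraries, with a log2 ratio of 0.83 to Luc, 0.52 to 3NQ and 0.68 to the ΔTM-labelled library. DOLK, the kinase that turns dolichol into dolichol phosphate, was at 18.6, 22.9, 21.1 and 18.6 in the same order. Its ratio of 0.29 in WT did not reach the threshold.

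Dolichol phosphate is then charged with mannose or glucose for the luminal steps. DPM1, the catalytic subunit of dolichol-phosphate mannose synthase, had the highest mean level of the assembly genes, at an FPKM of 89.5 (Luc), 78.1 (WT), 74.3 (3NQ) and 93.5 (ΔTM-labelled). Its small partner DPM3 was at 15.1, 13.5, 12.2 and 15.6, so that both subunits were lower in WT and 3NQ than in the other libraries. Their ratios to Luc in WT and 3NQ lay between −0.15 and −0.29. DPM2, the remaining subunit, was listed at 0 in every library, and no level can be read from that. ALG5 (ENSG00000120697, chr13:37523912-37574398, minus strand), which charges dolichol phosphate with glucose, was at 19.2 (Luc), 21.2 (WT), 32.7 (3NQ) and 31.2 (ΔTM-labelled). 3NQ and the ΔTM-labelled library stood above Luc and WT, with ratios to Luc of 0.14 (WT), 0.74 (3NQ) and 0.67 (ΔTM-labelled). The WT library was lower than 3NQ by a log2 ratio of −0.60. ALG5 overlaps EXOSC8 on the opposite strand, whose FPKM was 26.6, 18.4, 25.8 and 30.6.

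The cytosolic steps begin with DPAGT1, the enzyme that tunicamycin inhibits. Its FPKM was 48.5 (Luc), 51.2 (WT), 46.4 (3NQ) and 51.2 (ΔTM-labelled), with ratios to Luc of 0.08, −0.06 and 0.08. The libraries lay close together for this gene. ALG13 and ALG14 form the enzyme that adds the next N-acetylglucosamine, ALG13 as the catalytic subunit and ALG14 as its membrane anchor. ALG13 was at 14.1, 14.4, 13.6 and 16.6. ALG14 (ENSG00000172339, chr1:95448297-95538501, minus strand) was at 10.1 (Luc), 17.4 (WT), 14.9 (3NQ) and 15.03 (ΔTM-labelled). Luc was thus the lowest library for ALG14, and the ratio was 0.73 (WT), 0.52 (3NQ) and 0.53 (ΔTM-labelled), of which WT passed the threshold.

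The cytosolic mannosyltransferases are ALG1, ALG2 and ALG11. ALG2 (ENSG00000119523, chr9:101978708-101984238, minus strand) was at 29.0 (Luc), 49.3 (WT), 59.7 (3NQ) and 38.8 (ΔTM-labelled). Luc was the lowest library and 3NQ the highest, with ratios of 0.75 (WT), 1.02 (3NQ) and 0.41 (ΔTM-labelled). ALG2 in 3NQ was the only called value among the members that reached 2-fold. ALG1 was at 35.9, 42.2, 49.5 and 36.3, with its highest ratio of 0.45 in 3NQ. ALG11 had the lowest mean level of the assembly genes that passed, at 7.05, 9.86, 8.15 and 6.99, with WT highest and a ratio of 0.43. It overlaps UTP14C on the same strand, whose FPKM was 8.10, 10.3, 8.64 and 8.45, so the split of reads between them is uncertain.

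In the lumen, ALG3, ALG9 and ALG12 add mannose, and ALG6, ALG8 and ALG10 or ALG10B add the glucose residues. The ratios of ALG3, ALG9, ALG12, ALG6 and ALG8 to Luc ranged from −0.24 to 0.30 over the 3 libraries, and none was called. ALG12 was at 10.1 (Luc), 10.5 (WT), 12.6 (3NQ) and 12.7 (ΔTM-labelled), and ALG8 at 53.9, 47.5, 61.4 and 61.4. For both genes 3NQ and the ΔTM-labelled library stood above Luc and WT, by less than 1.5-fold. ALG10B (ENSG00000175548, chr12:38710380-38717784, plus strand) was at 10.9 (Luc), 6.30 (WT), 9.10 (3NQ) and 9.80 (ΔTM-labelled). WT was the lowest library, with ratios to Luc of −0.70, −0.23 and −0.14. Its paralog ALG10 was listed at 0 in all libraries. Their coding sequences are 97.7% identical, with 1386 of 1419 aligned bases the same, so that the split of reads between the copies is uncertain.

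The OST comes in a form with STT3A as its catalytic subunit, which acts on chains as they enter the endoplasmic reticulum, and a form with STT3B, which also acts later. STT3A, the most abundant member, had an FPKM of 293 (Luc), 321 (WT), 400 (3NQ) and 367 (ΔTM-labelled). STT3B was at 123, 113, 135 and 143. For each catalytic subunit 3NQ and the ΔTM-labelled library stood above Luc and WT, with ratios to Luc of 0.45 and 0.32 for STT3A and 0.14 and 0.22 for STT3B. None of these was called. The FPKM of STT3A over that of STT3B was 2.39 (Luc), 2.83 (WT), 2.95 (3NQ) and 2.57 (ΔTM-labelled).

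RPN1, RPN2, DDOST and DAD1 belong to both forms. RPN1 (ENSG00000163902, chr3:128338817-128399918, minus strand) was at 204 (Luc), 231 (WT), 278 (3NQ) and 323 (ΔTM-labelled), with ratios of 0.18, 0.44 and 0.66. It was the only OST subunit called against Luc, in the ΔTM-labelled library. RPN2 had the lowest WT ratio of the complex, −0.19, and was at 257, 226, 302 and 287. DDOST was at 143 (Luc), 130 (WT), 192 (3NQ) and 195 (ΔTM-labelled). For RPN2 and DDOST, WT was the lowest library and 3NQ and the ΔTM-labelled library were above Luc, and DDOST in WT differed by −0.55 from 3NQ and by −0.57 from the ΔTM-labelled library. DAD1 went another way, at 159, 220, 187 and 171, with WT highest and a ratio of 0.46.

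OSTC belongs to the STT3A form, and TUSC3 or MAGT1, which are oxidoreductases, to the STT3B form. OSTC was at 121 (Luc), 144 (WT), 174 (3NQ) and 172 (ΔTM-labelled), with ratios of 0.25, 0.52 and 0.50. MAGT1 was at 64.9, 58.7, 88.2 and 89.6, and WT was the lowest library. In WT it differed by −0.58 from 3NQ and by −0.60 from the ΔTM-labelled library, of which the latter passed 1.5-fold. TUSC3 had the lowest mean level of the complex and the highest WT ratio, 0.50, at 5.74, 8.54, 5.55 and 7.84. The FPKM of MAGT1 over that of TUSC3 was accordingly lowest in WT, at 6.88, against 11.3 in Luc, 15.9 in 3NQ and 11.4 in the ΔTM-labelled library.

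**Figure D3:**
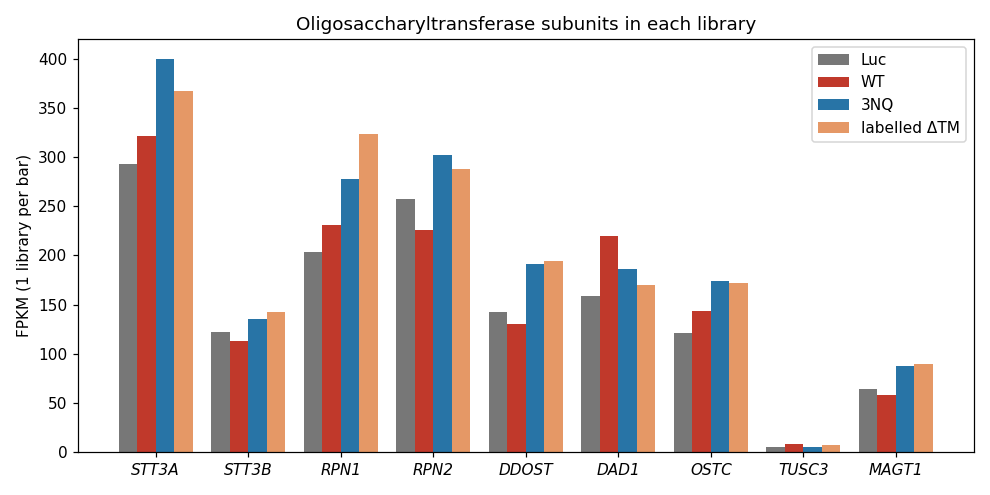
FPKM (vertical axis, linear from 0) of the 9 OST subunits among the members (horizontal axis), with 1 bar for each library. Bars of 3NQ and of the ΔTM-labelled library stand above those of Luc and WT for subunits such as DDOST, at 192 and 195 against 143 and 130, whereas DAD1 is highest in WT at 220.

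The 9 subunits among the members together reached an FPKM of 1371 (Luc), 1453 (WT), 1761 (3NQ) and 1755 (ΔTM-labelled). The further subunits OST4, KRTCAP2 and TMEM258 were not among the members and enter neither these values nor the OST medians. In WT, 3NQ and the ΔTM-labelled library, OST4 had ratios to Luc of 0.075, 0.16 and −0.057. Those of KRTCAP2 were 0.037, 0.19 and −0.042, and those of TMEM258 were 0.32, 0.38 and 0.099. Of the 9 subunits, 5 had a ratio above 0 (WT), 8 (3NQ) and 9 (ΔTM-labelled). Of all 11769 genes, 5777 (WT), 5060 (3NQ) and 4357 (ΔTM-labelled) did. At the 25% threshold, 2 of 9 were higher in WT, namely DAD1 and TUSC3. In 3NQ, 5 of 9 were higher, namely STT3A, RPN1, DDOST, OSTC and MAGT1. In the ΔTM-labelled library, 6 of 9 were higher, the subunits just named for 3NQ and TUSC3. The background shares, 11.4%, 7.02% and 5.15%, would give 1.02, 0.632 and 0.463 of 9 subunits. The subunits form one complex and are not independent, and a single OST value reached 1.5-fold against Luc.

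Chaperones and degradation factors of the endoplasmic reticulum also differed between these libraries. They form a list of folding genes set beside the pathway, chosen with earlier results of these data known. Of the 20 genes of that list that passed, those at least 1.5-fold above Luc numbered 5 (WT), 14 (3NQ) and 15 (ΔTM-labelled), beside backgrounds of 3.36%, 1.77% and 1.54% of all genes. The medians of the list were 0.26, 0.80 and 0.92, and those of all genes −0.0049, −0.038 and −0.060. HSPA5, the chaperone BiP, was at an FPKM of 318 (Luc), 521 (WT), 1114 (3NQ) and 1028 (ΔTM-labelled). SDF2L1, a component of the same chaperone network, was at 36.1, 43.6, 92.0 and 127. Both stood higher in 3NQ and the ΔTM-labelled library than in Luc and WT. HSPA5 had the highest ratio of the list in 3NQ, 1.80, and SDF2L1 the highest in the ΔTM-labelled library, 1.78. In WT the ratio of HSPA5 to Luc was 0.71. Of the 20 genes, 18 were lower and 2 higher in WT than in 3NQ, beside 5309 lower and 6451 higher of all 11769 genes. Against the ΔTM-labelled library, 15 were lower and 5 higher in WT, beside 5059 lower and 6704 higher of all genes. The OST medians of 0.42 (3NQ) and 0.39 (ΔTM-labelled) were smaller than the medians of the folding genes. The part of the folding genes in the OST values was not tested.

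Trimming starts with the glucosidases. GANAB, the catalytic subunit of glucosidase II, was the most abundant gene of this stage and had its lowest WT ratio, −0.30, at an FPKM of 236 (Luc), 191 (WT), 240 (3NQ) and 261 (ΔTM-labelled). MOGS, glucosidase I, was at 45.2, 54.4, 53.0 and 42.2. WT was thus the lowest library for GANAB and the highest for MOGS, and neither was called.

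UGGT1 and UGGT2 add a glucose back to proteins that have not folded. UGGT1 was at 33.7 (Luc), 34.8 (WT), 42.4 (3NQ) and 47.0 (ΔTM-labelled), with ratios of 0.04, 0.32 and 0.47. UGGT2 was at 8.52, 7.34, 8.47 and 7.48. UGGT1 stood higher in 3NQ and the ΔTM-labelled library, whereas UGGT2 was lower than Luc in each of the others, and neither was called.

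The mannosidases MAN1B1, MAN1A2, MAN2A1 and MAN2A2 had ratios between −0.17 and 0.11 in all 3 libraries. MAN2A1 was at 18.4, 17.0, 19.1 and 17.8, and its paralog MAN2A2 at 47.6, 47.7, 51.6 and 42.1. MAN1A1, a Golgi mannosidase, had the lowest mean level of this stage and its highest WT ratio, 0.36, at 1.253 (Luc), 1.89 (WT), 0.94 (3NQ) and 1.251 (ΔTM-labelled). Its values are near the filter, and MAN1C1, which did not pass, was at 0.071, 0.058, 0.052 and 0.12. Over the stage, no member was called in any library at 1.5-fold.

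Branching begins with MGAT1, which adds the first N-acetylglucosamine of hybrid and complex glycans. MGAT1 had the highest WT ratio of the stage, 0.23, at an FPKM of 96.2 (Luc), 113 (WT), 105 (3NQ) and 97.8 (ΔTM-labelled). MGAT2, which adds the next one, was at or under 0.071 in all libraries, with an exact 0 in WT, and did not pass. No level of MGAT2 was read from these values, and they do not show that the step is absent. MGAT3 (ENSG00000128268, chr22:39853349-39888199, plus strand), which adds the bisecting N-acetylglucosamine, was at 9.01 (Luc), 4.65 (WT), 5.45 (3NQ) and 8.56 (ΔTM-labelled). WT and 3NQ stood below the other libraries, with ratios to Luc of −0.82 and −0.63 against −0.07 in the ΔTM-labelled library. Between WT and the ΔTM-labelled library the ratio was −0.76.

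MGAT4A, MGAT4B and MGAT5 add the further branches. MGAT4A was at 20.2, 21.9, 16.5 and 15.6, and MGAT4B at 84.0, 85.9, 69.4 and 77.5. Both stood highest in WT, and no ratio to Luc was called. MGAT4B overlaps SQSTM1 at its start, on the opposite strand, whose FPKM was 175, 495, 257 and 200. MGAT5 (ENSG00000152127, chr2:134877554-135212192, plus strand) was at 43.7 (Luc), 38.6 (WT), 44.9 (3NQ) and 28.0 (ΔTM-labelled). The ΔTM-labelled library was the lowest for MGAT5, with a ratio of −0.62 against −0.18 in WT and 0.04 in 3NQ.

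FUT8 (ENSG00000033170, chr14:65877310-66210839, plus strand) adds the core fucose of N-glycans. It was at 27.6 (Luc), 19.3 (WT), 17.5 (3NQ) and 21.5 (ΔTM-labelled). Luc was the highest library, with ratios of −0.50, −0.63 and −0.34, of which 3NQ passed the threshold. B4GALT1, a galactosyltransferase and the most abundant gene of the stage, was at 194, 153, 175 and 169, and Luc was again highest. ST6GAL1, which adds sialic acid, did not pass, at 0.024, 0.17, 0.091 and 0.024.

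NGLY1, which removes N-glycans from misfolded proteins in the cytosol, was at 20.6 (Luc), 24.9 (WT), 21.9 (3NQ) and 21.5 (ΔTM-labelled). WT stood highest, with a ratio of 0.26, and it was not called.

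**Figure D4:**
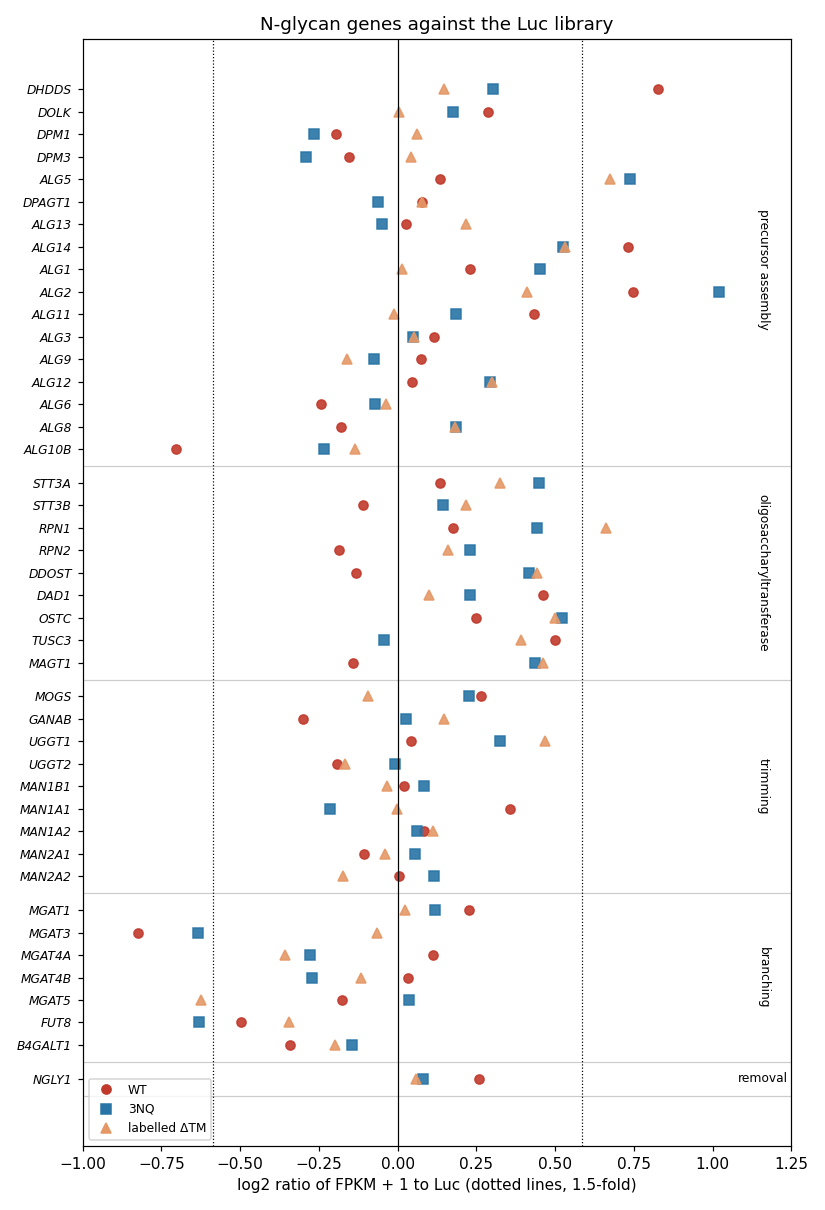
Log2 ratio of FPKM + 1 to Luc (horizontal axis) of the 43 members that passed the filter, by stage, with 1 symbol for each library and dotted lines at 1.5-fold. Values run from −0.82 for MGAT3 in WT to 1.02 for ALG2 in 3NQ, and most symbols lie inside the dotted lines.

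Other glycan genes were read from lists written from general knowledge of the pathway, with earlier results of these data known. Of 12 further genes of precursor assembly, transfer and trimming that passed, 0 reached 1.5-fold in any of the 3 libraries against Luc. The backgrounds for these lists are the shares of all genes given above, 3.36% higher and 3.34% lower in WT, 1.77% and 2.57% in 3NQ, and 1.54% and 1.57% in the ΔTM-labelled library. Their medians were 0.12 (WT), 0.18 (3NQ) and 0.089 (ΔTM-labelled). Of 16 fucosylation genes, 1 reached it, in WT. It was SLC35C1, the Golgi carrier of GDP-fucose, at 5.42 (Luc), 9.54 (WT), 7.31 (3NQ) and 6.38 (ΔTM-labelled), with a ratio of 0.72. The medians of the fucosylation list were 0.050, −0.090 and −0.065. Of 18 genes mostly for galactose and sialic acid, 1 reached it, in 3NQ. It was NANS, which makes sialic acid, at 36.4, 49.4, 57.3 and 51.0, with a ratio of 0.64. The medians of that list were −0.11, −0.090 and −0.062. That list also held a further branching enzyme and a Golgi carrier of N-acetylglucosamine.

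The unfolded protein response, the program by which cells raise chaperones when proteins misfold in the endoplasmic reticulum, acts through known promoter motifs, so the members' promoters were searched for their letters. RefSeq promoter windows on GRCh38.p14, from 250 bases before to 50 bases after a start, were found for 40 of the 48 members. The ERSE motif (CCAAT, then 9 bases of any kind, then CCACG) was in 0.0769% of 35116 windows. It was found in 1 member, ALG12, and in 6 of the 20 folding genes that had a window, among them HSPA5. These 20 include 1 gene that did not pass the FPKM filter, so they are not the same 20 that were compared between libraries. ERSE-II (ATTGG, 1 base of any kind, CCACG) was in 0.0541% of windows, 0 members and 3 folding genes. The UPRE motif (TGACGTGG) was in 0.729% of windows, in 1 member, DHDDS, and in 1 folding gene. Its core, ACGTGG, which lies within it, was in 9.72% of windows, 9 of 40 members and 10 of 20 folding genes. The CCAAT box, which lies within ERSE, was in 34.6% of windows, 22 of 40 members and 17 of 20 folding genes. Both strands were searched, a gene was counted if any of its windows held the letters, and windows, not genes, make the background. A match is a description of letters and no evidence of binding.

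The windows of the members with a match to ERSE or UPRE are shown, with that of the OST subunit DDOST, which held the CCAAT box alone of these motifs, on the strand of each gene. Capitals mark the matches. In DHDDS (chr1:26432071-26432370, plus strand) they are the UPRE in reverse complement, with its first base at −7 from the start, and the core at −203. In ALG12 (chr22:49918389-49918688, minus strand) they are the ERSE, whose first base is at −134 from the start, and CCAAT boxes. In DDOST (chr1:20661320-20661619, minus strand) they are CCAAT boxes on both strands.
DHDDS: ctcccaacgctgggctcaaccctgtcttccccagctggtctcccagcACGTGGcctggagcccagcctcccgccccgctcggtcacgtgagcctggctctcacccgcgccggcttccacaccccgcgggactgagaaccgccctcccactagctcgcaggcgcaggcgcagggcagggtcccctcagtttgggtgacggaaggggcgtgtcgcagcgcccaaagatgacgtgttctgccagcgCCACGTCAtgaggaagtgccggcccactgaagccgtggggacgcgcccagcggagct
ALG12: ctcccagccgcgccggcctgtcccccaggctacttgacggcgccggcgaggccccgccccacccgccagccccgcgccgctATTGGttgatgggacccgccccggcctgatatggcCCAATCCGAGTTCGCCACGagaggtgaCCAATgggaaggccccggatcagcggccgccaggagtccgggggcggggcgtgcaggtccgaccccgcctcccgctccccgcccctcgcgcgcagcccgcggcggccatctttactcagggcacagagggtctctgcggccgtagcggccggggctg
DDOST: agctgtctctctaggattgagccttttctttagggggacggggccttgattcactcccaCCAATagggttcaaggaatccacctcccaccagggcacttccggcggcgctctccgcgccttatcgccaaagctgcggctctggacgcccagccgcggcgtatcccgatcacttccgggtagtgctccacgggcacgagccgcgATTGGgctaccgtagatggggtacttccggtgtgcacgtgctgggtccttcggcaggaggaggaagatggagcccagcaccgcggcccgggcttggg

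Beside these windows, DHDDS stood highest in WT, and ALG12 had ratios of 0.05 (WT), 0.29 (3NQ) and 0.30 (ΔTM-labelled). ALG12 overlaps the start of CRELD2 on the opposite strand, a gene named here after its values were seen. CRELD2 had an FPKM of 14.8 (Luc), 14.8 (WT), 35.4 (3NQ) and 51.5 (ΔTM-labelled), so that 3NQ and the ΔTM-labelled library were above Luc and WT. The letters alone do not tie the match to one gene or the other.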

How the data were processed

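RNA of 4 MKN28 cultures, 1 library per group, was analysed from the deposited table of FPKM, and groups were taken from the sample labels. The authors filtered reads and used Tophat (GRCh37) and Cufflinks 2.1.1 to estimate FPKM of Ensembl release 72 genes, with non-coding regions masked and with multi-read and fragment bias correction. The deposited FPKM carry no counts, so depth and counting error are unknown, and an exact 0 can be a failed estimate. Whether strand was used in counting is not given in the sources used here, and 13 members overlap another entry of the table, 4 of them on the same strand.

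Log2 ratios were computed with a pseudocount of 1 in Python 3.11.15 (numpy 2.4.6, pandas 2.3.3), for genes reaching an FPKM of 1 in any library, and called at 1.5-fold. The steps were tested on simulated data with an assumed noise and planted changes larger than those of the called members. That checks the code and gives no error rate for the calls. With 1 library per group no test was made. Values were given in full for every called member, for the members with the highest and lowest level and WT ratio in each stage, for the paralog pairs STT3A and STT3B, TUSC3 and MAGT1, ALG10 and ALG10B, UGGT1 and UGGT2, and MGAT4A and MGAT4B, and for DPAGT1 and FUT8. Of other genes, KIAA1324 and list genes past 1.5-fold could be named. All further ones (EXOSC8, UTP14C, CRELD2, SQSTM1, OST4, KRTCAP2, TMEM258, COL1A1 and CD68) were named after their values were seen. The lists covered other assembly, transfer and trimming genes, fucosylation, galactose and sialic acid with a few further branching genes, and endoplasmic reticulum folding genes. Epithelial, fibroblast, leukocyte and endothelial markers were listed too. The members and lists were chosen with earlier results of these data known. Promoters came from RefSeq (GRCh38.p14), and KIAA1324 and ALG10 sequences from GENCODE on GRCh37, aligned with Biopython 1.88. Figures were drawn with matplotlib 3.10.9. The alternatives were a threshold of 25% or of 2-fold, pseudocounts of 0.1 and 5, no filter or a minimum FPKM of 5, scaling by median of ratios or by upper quartile, summed entries of a symbol, and a control made of the mean of 3NQ and the ΔTM-labelled library.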

Additional observations from a re-analysis of the deposited data

Results flagged for a closer look

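Of the members, 2 lay below Luc in one library and above it in another, with those libraries at least 1.5-fold apart, and neither difference was tested because each group had 1 library. MAGT1, an oxidoreductase subunit of the OST, was at an FPKM of 58.7 in WT and 89.6 in the ΔTM-labelled library, with Luc between them at 64.9, and the log2 ratio of WT to the ΔTM-labelled library was −0.60. MGAT5, a branching enzyme, was at 44.9 in 3NQ and 28.0 in the ΔTM-labelled library, with Luc between them at 43.7, and the log2 ratio of 3NQ to the ΔTM-labelled library was 0.66. Of all 11769 genes, 5.14% met both conditions between WT and the ΔTM-labelled library and 2.38% between 3NQ and the ΔTM-labelled library, beside 1 of 43 members in each.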

How the results depend on the processing

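No paired analysis was possible because each group had 1 library, and no library could be left out. Among named genes under each alternative, 119 values kept their direction and side of the threshold, 29 fell short of it and 1 reversed. The reversed value was ALG2 in WT against the mean of 3NQ and the ΔTM-labelled library (−0.00027). Many of the 119 could not have changed, so their number is no measure of stability. The 25% threshold only loosens the call. Removing the filter, raising its minimum and summing entries left the ratio of every called member as it was. A 2-fold threshold left 1 member, higher in 3NQ, and 0 in every other count, other pathway genes included. At the 25% threshold, members were 7 higher and 4 lower in WT, 10 higher in 3NQ, 10 higher and 3 lower in the ΔTM-labelled library, 4 higher and 7 lower in WT against 3NQ, and 8 higher and 11 lower in WT against the ΔTM-labelled library, and other pathway genes numbered 11, 14 and 4 against Luc and 9 in WT against 3NQ.

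With a pseudocount of 0.1, other pathway genes numbered 3, 2 and 1 against Luc, and 2 members were higher and 2 lower in WT than in 3NQ. With a pseudocount of 5, 0 members were lower in any comparison, 1 was higher in the ΔTM-labelled library, and 0 other pathway genes were called in WT. Without the filter, medians against Luc were −0.026 (WT) and −0.15 (3NQ) for branching and 0.047 (3NQ) for precursor assembly, because undetected members enter. Under the median of ratios, 0 members were lower in the ΔTM-labelled library, where MGAT5 came to −0.56, and 1 other pathway gene was called. Members lower in WT were then 2 against 3NQ and 5 against the ΔTM-labelled library. Under the upper quartile, these counts were 2 and 4, with 1 other pathway gene in the ΔTM-labelled library. Against that mean, 1 member was higher and 1 lower in WT, with medians of −0.29 for OST and 0.080 for branching. The trimming median in the ΔTM-labelled library changed sign under both rescalings, reaching 0.028. Medians were taken as moved at a change of 0.1. The share of all genes was not computed under the 2-fold threshold, the pseudocounts, the rescalings or the mean of 3NQ and the ΔTM-labelled library. Member counts under these settings therefore have no background, and a rescaling shifts all genes of a library together. Apart from what a setting's own construction does, the cause was not tested. Of the alternatives, only the pseudocounts and the rescalings could move the OST medians of 3NQ and the ΔTM-labelled library against Luc. Under these, the median lay between 0.41 and 0.46 in 3NQ and between 0.32 and 0.45 in the ΔTM-labelled library. The other settings left these medians as they were by construction.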
